A study of Mus musculus with 15 samples.

Results

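Whole-blood RNA of 10 mice dosed with ABBV-075 was compared between 5 animals given 5 mg/kg and 5 given 1 mg/kg, which are 10 of the 15 arrays of a series on blood markers of the compound. The 10 arrays were taken by their labelled dose, with 1 Affymetrix mouse array per mouse, and blood was collected 6 h after dosing in both groups. The other 5 mice received vehicle, and their arrays entered the normalisation, the filter on dim genes and the estimate of spread, but not the contrast. Dose was the labelled difference between the groups, and strain, sex, age and route were not given in the labels used here. With 5 mice a group, the number of arrays sets the precision of all values below. The comparison asks which blood transcripts differ between a lower and a higher dose of the same compound.

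ABBV-075 (mivebresib) is an inhibitor of the BET family of bromodomain proteins, readers of acetylated histones that include Brd2 and Brd3. The kinase complex P-TEFb, made of Cdk9 and a T-type cyclin, releases paused RNA polymerase II near promoters. Hexim1 together with a small nuclear RNA holds P-TEFb inactive, and a rise of Hexim1 mRNA in blood is a commonly used sign of exposure to BET inhibitors. Myeloid inflammatory genes and lymphoid genes with strong enhancers are among the transcripts known to depend on BET proteins.

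The arrays differed in brightness within each dose. Median probe set intensity before scaling was 3.61 to 25.4 at 1 mg/kg and 7.61 to 19.3 at 5 mg/kg, and the dimmest of all were 1 mg/kg replicate 1 and 5 mg/kg replicate 3. The 18S ribosomal RNA control read, in log2, 9.97 ± 0.43 (SD, n = 5) at 1 mg/kg, 9.42 ± 0.42 at 5 mg/kg and 11.19 ± 0.94 with vehicle, and its difference between doses gave an exact two-sided permutation p of 0.0794 and 0.238 after adjustment over 6 array measures. The smallest p that 5 arrays against 5 can give is 0.00794. The Cre spike-in, added at hybridisation, read 13645 ± 1499 at 1 mg/kg. At 5 mg/kg it read 12074 ± 571, with an exact permutation p of 0.0476 for the difference (adjusted 0.238). The ratios of 3' to 5' signal for Actb and Gapdh, which rise as RNA degrades, had exact permutation p of 0.317 and 0.333. The part of brightness, 18S signal and spike-in in the gene differences was not tested beyond the fits given here with 18S as a covariate and without the dimmest arrays. In bulk blood, fewer cells of a type and less RNA per cell cannot be told apart.

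No gene passed the threshold of an adjusted p of 0.05 between the doses, which is 0% of the 12499 tested genes. The smallest adjusted p was 0.453 in limma with Benjamini-Hochberg adjustment, and none lay under 0.1. Without adjustment, 987 genes had p under 0.05, where 5% of the tested genes, both directions together, is 625. Of the 987, 658 (5.26% of the tested genes) were higher and 329 (2.63%) lower at 5 mg/kg. In the same fit 1 gene passed at 1 mg/kg against vehicle and 11 at 5 mg/kg against vehicle. The median log2 difference of a gene, 5 mg/kg minus 1 mg/kg, was -0.02, with quartiles of -0.26 and 0.22. The 95% confidence interval of a gene reached 0.61 on either side at the median, so log2 differences of that size or less were not resolved for a typical gene. Arrays varied more at 1 mg/kg, with a median SD of 0.50 per gene, than at 5 mg/kg (0.40) or with vehicle (0.39). This difference in spread was not tested.

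**Figure D1:**
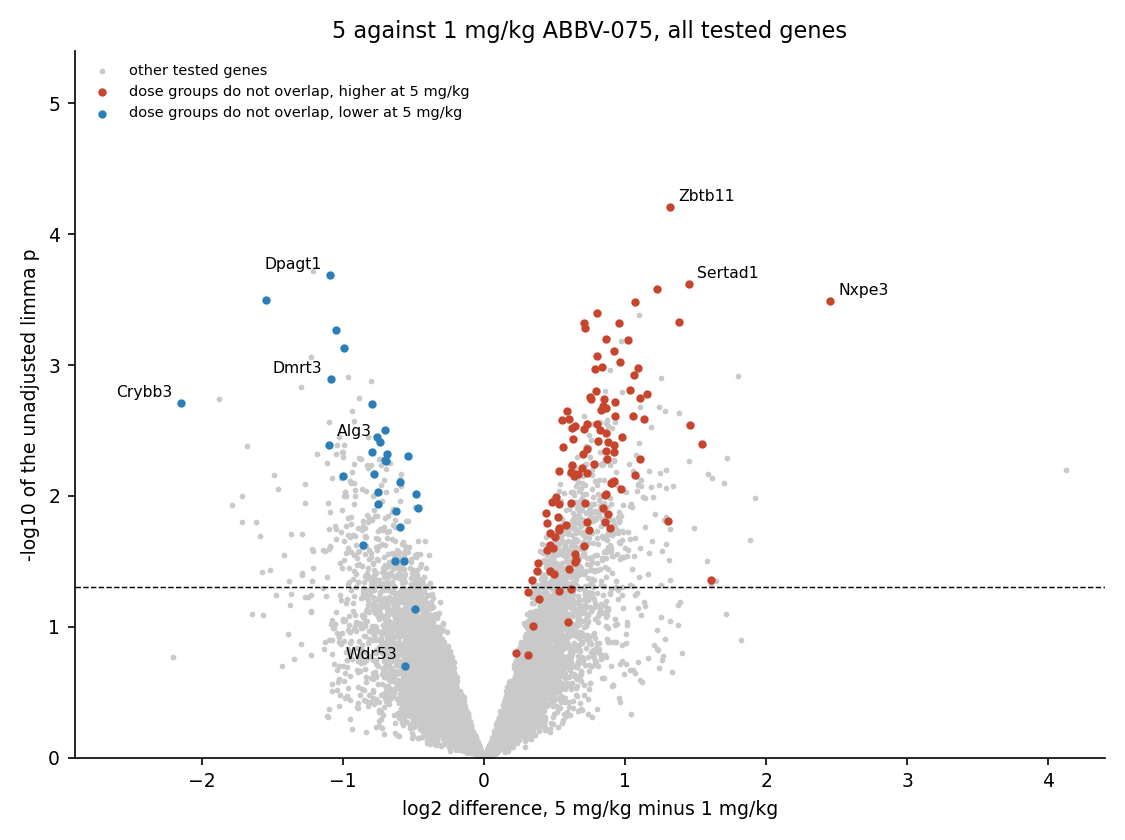
Log2 difference between doses (x axis, 5 mg/kg minus 1 mg/kg) against -log10 of the unadjusted limma p (y axis) for the 12499 tested genes; coloured points are the 145 genes whose 5 arrays at one dose all lie above the 5 of the other, and the dashed line marks an unadjusted p of 0.05. The 115 coloured points on the right outnumber the 30 on the left, and none of the genes passed an adjusted p of 0.05.

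The groups did not overlap at all for 145 genes. All 5 arrays at 5 mg/kg lay above all 5 at 1 mg/kg for 115 of them (0.920% of the tested genes), and all lay below for 30 (0.240%). For values that do not depend on dose, a share of 0.00794 of genes would separate fully, both directions together and ties aside. The counts were not tested against this share. With scaling by the median ratio in place of quantile normalisation the same count was 76 higher and 57 lower. Without the 2 dimmest arrays, an alternative chosen after seeing the data, it was 197 and 134. Fewer arrays a dose separate fully more often even where dose has no effect. The share of 0.00794 therefore does not hold for that count, and its size does not show a stronger separation. Vehicle did not lie at the low end of this order for most of these genes. Among the 115 higher genes the vehicle mean lay between the dose means for 82, the 1 mg/kg mean lay between vehicle and 5 mg/kg for 29 and the 5 mg/kg mean was the middle value for 4. Among the 30 lower genes these counts were 23, 4 and 2, with 1 tie, against 4459, 4043 and 3995 of all tested genes. The 115 and 30 genes were chosen for separated doses, which by itself makes a vehicle mean between the dose means more likely than among all tested genes. The 3 groups also share arrays in these counts. The orders are therefore a description and do not show that the doses moved in opposite directions from vehicle.

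The transcripts with the smallest p among the bright, non-overlapping genes are named here, 12 in each direction, since their arrays separate by dose although none passed the adjusted threshold. The 12 higher genes had fold differences of 1.64 to 5.48 and adjusted p of 0.453 to 0.486 in limma. They include regulators of transcription and chromatin (Sertad1, Sirt1, Setd2 and H2ax), proteins of the cell cortex and its actin (Ezr, Rcsd1 and Fgd2) and parts of the ubiquitin and proteasome system (Fbxo33 and Ublcp1). This grouping was made after their names were seen and was not tested.

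For 4 genes of the report the 300 bases around the transcription start are printed, because their transcripts separate by dose or mark BET inhibition: Sertad1, Txnip and Hexim1, which were higher at 5 mg/kg, and Alg3, which was lower. Each runs 5′ to 3′ on the gene's strand from 250 bases before the start to the 50th base after it, from RefSeq on mouse build GRCm38.p6, and capitals mark every CCAAT box (CCAAT) and GC box (GGGCGG) on either strand. The positions are chr7:27486703-27487002 (plus strand) for Sertad1, chr3:96557707-96558006 (plus strand) for Txnip, chr11:103116075-103116374 (plus strand) for Hexim1 and chr16:20610712-20611011 (minus strand) for Alg3.
Sertad1: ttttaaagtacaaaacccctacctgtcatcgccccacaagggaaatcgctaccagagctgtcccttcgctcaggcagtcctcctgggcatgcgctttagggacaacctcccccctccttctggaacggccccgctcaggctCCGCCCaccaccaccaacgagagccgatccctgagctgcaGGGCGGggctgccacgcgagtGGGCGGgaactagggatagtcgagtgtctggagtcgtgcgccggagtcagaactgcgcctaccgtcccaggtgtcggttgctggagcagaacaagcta
Txnip: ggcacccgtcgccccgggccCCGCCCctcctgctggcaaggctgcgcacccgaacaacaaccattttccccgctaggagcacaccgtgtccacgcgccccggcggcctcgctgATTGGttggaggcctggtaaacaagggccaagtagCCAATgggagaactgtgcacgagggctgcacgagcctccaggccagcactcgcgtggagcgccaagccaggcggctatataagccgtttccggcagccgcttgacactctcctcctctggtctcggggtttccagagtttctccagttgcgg
Hexim1: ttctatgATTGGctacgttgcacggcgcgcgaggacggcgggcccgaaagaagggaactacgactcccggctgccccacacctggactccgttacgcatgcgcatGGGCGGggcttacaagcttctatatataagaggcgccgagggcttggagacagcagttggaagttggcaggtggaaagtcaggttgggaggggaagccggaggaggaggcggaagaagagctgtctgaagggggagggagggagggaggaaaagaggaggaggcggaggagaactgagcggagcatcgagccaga
Alg3: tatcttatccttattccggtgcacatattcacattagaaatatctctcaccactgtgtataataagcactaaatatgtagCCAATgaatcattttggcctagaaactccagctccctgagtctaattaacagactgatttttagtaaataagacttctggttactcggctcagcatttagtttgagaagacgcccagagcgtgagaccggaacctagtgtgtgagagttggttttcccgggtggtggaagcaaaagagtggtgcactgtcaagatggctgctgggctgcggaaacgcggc
The Sertad1 window held 3 GC boxes and 0 CCAAT boxes, that of Txnip 1 and 2, that of Hexim1 1 and 1, and that of Alg3 0 and 1. Over all genes whose groups did not overlap, a GC box occurred in 69.35% of the 124 promoters of the higher genes and in 48.28% of the 29 of the lower genes, against 56.18% of the 12760 promoters of tested genes and 35.66% of all promoters listed. A CCAAT box occurred in 31.45%, 51.72%, 37.01% and 37.41% of the same sets. Promoters were matched for 91 of the 115 higher genes and 24 of the 30 lower ones. A match is a run of letters in the window and not a measured binding site.

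Sertad1, a transcriptional co-regulator that binds the cyclin D kinase Cdk4, read 5.58, 6.64, 5.52, 5.96 and 5.07 on the log2 intensity scale in the 5 mice at 1 mg/kg and 6.96, 7.0, 7.12, 7.46 and 7.50 at 5 mg/kg. The lowest mouse at 5 mg/kg lay above the highest at 1 mg/kg. The vehicle mean was lower still, with mice at 4.00 to 5.44 that overlapped those at 1 mg/kg. The difference was 1.45 ± 0.31 (SE; 95% interval 0.80 to 2.11), or 2.74-fold, with an adjusted p of 0.453 in limma. The gene is among the 11 that passed against vehicle at 5 mg/kg.

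Sirt1, an NAD-dependent protein deacetylase, read 4.00, 5.28, 5.21, 4.91 and 4.79 at 1 mg/kg and 5.87, 5.83, 6.23, 6.14 and 6.25 at 5 mg/kg. The 5 mg/kg mice were close together and all above the others, with vehicle at 4.34 to 5.51, close to the lower dose. The difference was 1.23 ± 0.26 (2.34-fold). Setd2, the methyltransferase that marks histone H3 along transcribed genes, was higher by 0.86 ± 0.20 and lay at 5.08 to 6.19 at 1 mg/kg against 6.38 to 6.90 at 5 mg/kg. H2ax, the histone variant that is phosphorylated at DNA breaks, read 6.21, 6.96, 6.58, 6.81 and 6.72 at 1 mg/kg and 7.70, 7.08, 7.96, 7.85 and 7.30 at 5 mg/kg. Its groups were separated by a narrow gap, and its difference was 0.92 ± 0.22 (1.89-fold).

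Ezr encodes ezrin, which links the plasma membrane to actin. It read 7.58, 7.56, 7.31, 7.10 and 6.53 at 1 mg/kg and 8.14, 8.03, 8.37, 8.67 and 8.23 at 5 mg/kg, a difference of 1.07 ± 0.24 (2.10-fold). Vehicle mice overlapped those at 1 mg/kg, at 6.97 to 7.90. Fgd2, an exchange factor for the GTPase Cdc42, was at the floor on 2 of 5 arrays at 1 mg/kg and above it on all 5 at 5 mg/kg, and was higher by 1.38 ± 0.32, or by 0.81 with a floor of 32. Rcsd1, which binds the actin capping protein CapZ, was higher by 0.80 ± 0.20, but the mean of its probe sets was higher by 0.09, since its dimmer probe sets, above the floor on 5 and 6 of 15 arrays, gave -0.21 and -0.32. Its order also differed from that of Sertad1: vehicle was at 7.50 to 7.97, 1 mg/kg at 6.42 to 7.28 and 5 mg/kg at 7.33 to 7.91.

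Nxpe3 had the largest fold of the 12 at 5.48, a log2 difference of 2.45 ± 0.54. It read 5.26, 5.78, 4.67, 4.00 and 4.00 at 1 mg/kg and 6.95, 6.65, 7.36, 7.42 and 7.60 at 5 mg/kg, so 2 mice at the lower dose were at the floor. Vehicle mice ranged from the floor of 4.00 up to 7.26, a range that holds all 5 mice at 1 mg/kg and 2 of the 5 at 5 mg/kg. The remaining genes of the 12 were Ublcp1, a phosphatase of the nuclear proteasome (0.80 ± 0.18), the copine Cpne1, a calcium-dependent phospholipid-binding protein (0.71 ± 0.16), the F-box protein Fbxo33 (0.96 ± 0.24) and the tetraspanin Tspan13 (0.84 ± 0.21). Averaging all probe sets of the gene left 0.52 for Ublcp1 and 0.56 for Fbxo33. The smallest p of all tested genes belonged to Zbtb11, a zinc finger protein named here after its values were seen because its mean was too dim for the naming rule. It was at the floor on 4 of 5 arrays at 1 mg/kg and at 4.88 to 5.55 at 5 mg/kg, a difference of 1.32 ± 0.25 (unadjusted p = 6.21e-05, adjusted p = 0.453 in limma), which was 0.40 with a floor of 32 and 2.08 with a floor of 8.

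**Figure D2:**
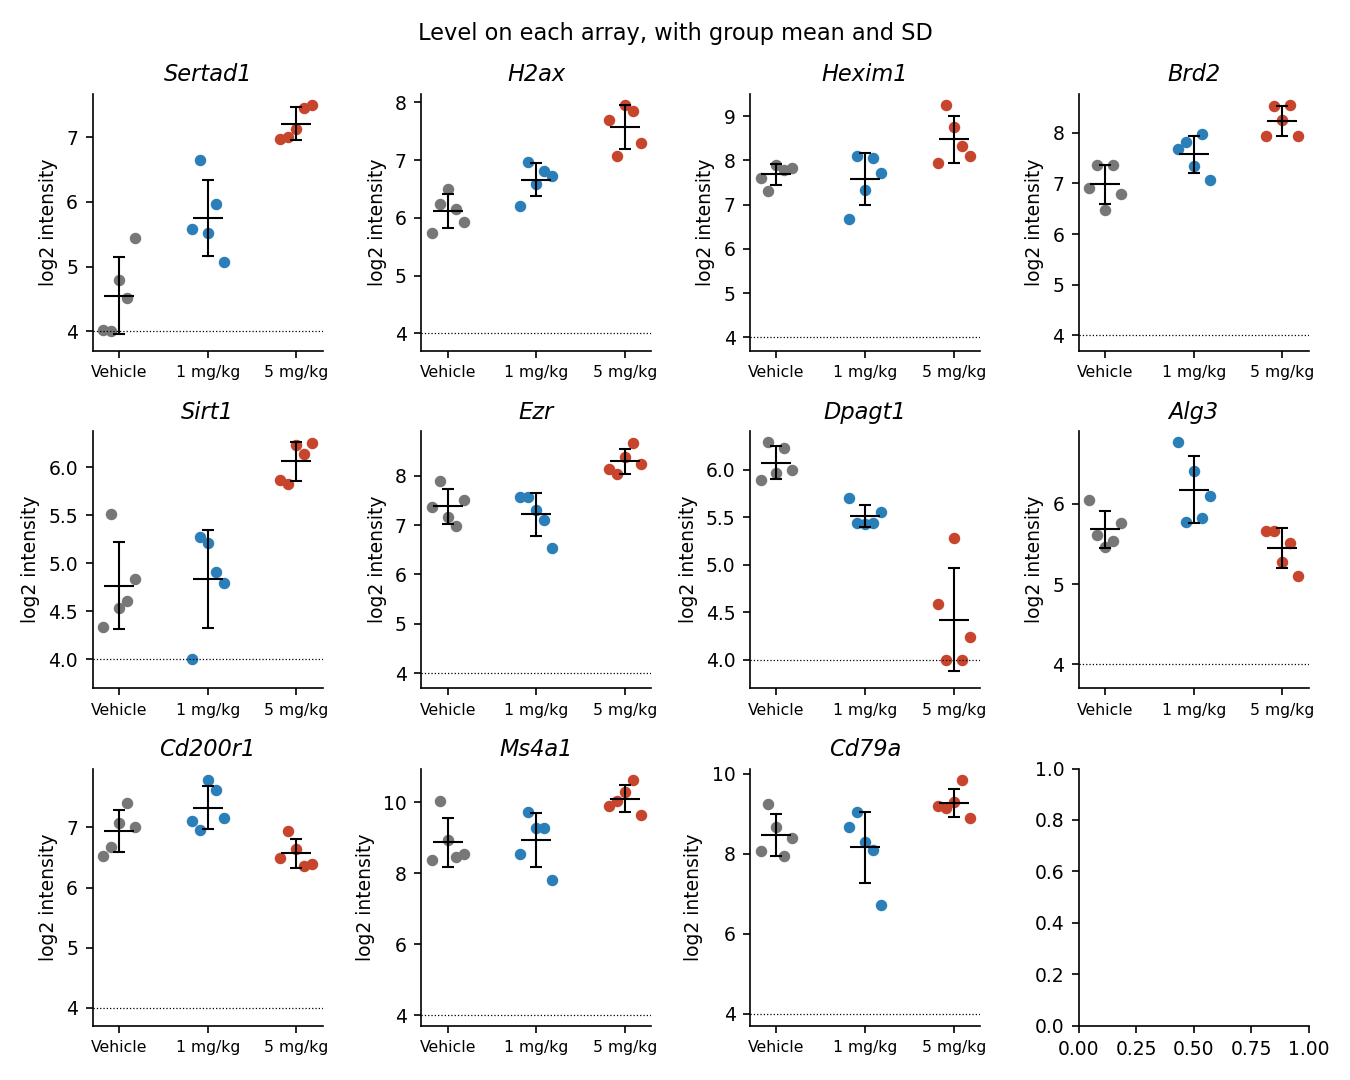
Log2 intensity (y axis) of the genes named in this caption on each of the 15 arrays, by group (x axis: vehicle, 1 mg/kg, 5 mg/kg). Points are mice, black marks are the group mean and SD (n = 5), and the dotted line is the floor. The 5 mg/kg points of Sertad1, H2ax, Sirt1 and Ezr lie above all 1 mg/kg points. Those of Dpagt1, Alg3 and Cd200r1 lie below them, and the doses overlap for Hexim1, Brd2, Ms4a1 and Cd79a.

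The 12 genes named as lower at 5 mg/kg are all of the non-overlapping lower genes that were bright and had a full symbol, against 98 such genes in the other direction. Their folds ran from 1.38 to 4.43 and their adjusted p in limma from 0.486 to 0.768. Crybb3, a beta crystallin known from the lens, read 8.05, 6.28, 5.97, 6.34 and 7.03 at 1 mg/kg and was at the floor on 3 of 5 arrays at 5 mg/kg, with the others at 5.47 and 5.46. Its vehicle mice ranged from the floor to 6.97, so they overlapped both doses. The log2 difference was -2.15 ± 0.58. Dmrt3, a transcription factor known from spinal interneurons, lay at 5.58 to 6.65 at 1 mg/kg and at or under 5.54 at 5 mg/kg, a difference of -1.08 ± 0.28.

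Cd200r1, an inhibitory receptor of myeloid and lymphoid cells for Cd200, read 7.11, 6.96, 7.79, 7.62 and 7.15 at 1 mg/kg and 6.49, 6.95, 6.65, 6.35 and 6.40 at 5 mg/kg. The highest mouse at 5 mg/kg and the lowest at 1 mg/kg were almost equal, and vehicle at 6.53 to 7.41 overlapped both. The difference was -0.76 ± 0.22. Alg3, a mannosyltransferase that builds the lipid-linked precursor of N-glycans, read 6.77, 5.78, 6.41, 5.83 and 6.10 at 1 mg/kg and 5.67, 5.67, 5.27, 5.52 and 5.11 at 5 mg/kg, a difference of -0.73 ± 0.22. Dpagt1, the enzyme of the opening step of the same pathway, was also lower at 5 mg/kg and is described with the genes that passed against vehicle.

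Naprt, which makes the NAD precursor nicotinic acid mononucleotide, was lower by 0.70 (log2 -0.70 ± 0.20), the monoglyceride lipase gene Mgll by 0.78 (-0.78 ± 0.25) and the phospholipid transporter gene Abcb4 by 0.54 (-0.54 ± 0.17). For Mgll the mean of its probe sets differed by -0.47. Mipep, Eif4e3 and Otud3 were each lower on their brightest probe set (-0.48 ± 0.16, -0.47 ± 0.17 and -0.86 ± 0.34), while another probe set of each was higher at 5 mg/kg by 0.65, 0.45 and 0.64. The mean over probe sets was 0.08 for Mipep, -0.01 for Eif4e3 and -0.11 for Otud3, so these genes have no direction that holds across their probe sets. Psors1c2 differed by -0.57 ± 0.24, and by -0.37 without scaling. Wdr53 differed by -0.56 ± 0.41, which became -0.35 without 1 mg/kg replicate 1, the highest array at 7.26 against 6.12 to 6.36 in the other 4.

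The 11 genes that passed the threshold at 5 mg/kg against vehicle show how the lower dose compares, and were chosen on the 5 mg/kg arrays, so their values are a description. For 10 of the 11 the 1 mg/kg mean lay between those of vehicle and 5 mg/kg. The exception was Slc25a24, a mitochondrial carrier of ATP-Mg and phosphate, whose log2 differences from vehicle were -1.21 at 1 mg/kg and -1.16 at 5 mg/kg, with 0.05 ± 0.21 between the doses, a sign that turned without scaling (-0.08). Of the 3 that were higher than vehicle, Sertad1 differed from vehicle by 1.20 and 2.66 at 1 and 5 mg/kg, H2ax by 0.55 and 1.46, and the histone gene H2aw by 0.36 and 1.26. H2aw read 5.51 to 6.46 at 1 mg/kg and 6.44 to 7.37 at 5 mg/kg, so its groups overlapped at 1 mouse each.

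The other 7 were lower than vehicle at both doses. Pla2g7, the secreted enzyme that inactivates platelet-activating factor, read 6.82, 6.26, 7.19, 6.25 and 4.97 at 1 mg/kg and 5.47, 4.00, 5.68, 5.74 and 5.08 at 5 mg/kg, where vehicle was at 7.52 to 8.22. The lowest mouse at 1 mg/kg lay within the range of the higher dose, and the other 4 lay above it. Mpeg1, a pore-forming protein of phagocytes, was at 8.03 to 8.51 with vehicle, 6.13 to 7.49 at 1 mg/kg and 5.22 to 6.79 at 5 mg/kg. The C-type lectin gene Clec4a3 was at 6.29 to 7.21, 4.66 to 6.02 and 4.00 to 5.15 in the same order.

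The differences between the doses were -1.11 ± 0.39 for Pla2g7, -0.91 ± 0.31 for Mpeg1 and -1.0 ± 0.30 for Clec4a3. Their differences of 1 mg/kg from vehicle, on shared arrays, were -1.44, -1.31 and -1.25. Ccr1, a receptor for inflammatory chemokines on myeloid cells, differed by -1.11 ± 0.35 between the doses on its brighter probe set and by -0.10 on a probe set above the floor on 6 of 15 arrays. Dpagt1 was the one gene of the 7 without overlap, at 5.43 to 5.71 for 1 mg/kg and 4.00 to 5.29 for 5 mg/kg, with -1.09 ± 0.23 between the doses and 2 of 5 arrays at the floor at 5 mg/kg, and -0.46 with a floor of 32. Ptpro, a receptor tyrosine phosphatase, was at the floor on 3 of 5 arrays at 5 mg/kg, and its -0.70 ± 0.22 became -0.12 with a floor of 32. Ear3, an eosinophil-associated ribonuclease, was at the floor on 2 of 5 arrays at 1 mg/kg and on all 5 at 5 mg/kg, against 6.82 to 7.64 with vehicle, so no fold between the doses is given.

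**Figure D3:**
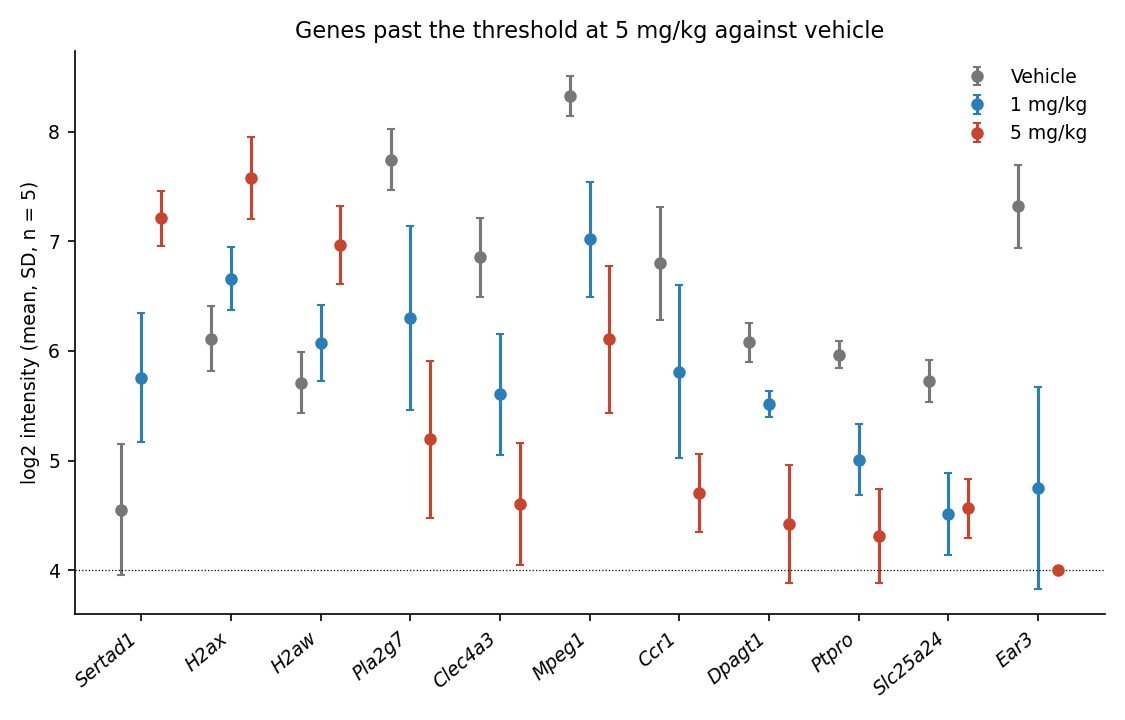
Mean log2 intensity (y axis; bars are SD, n = 5 mice) of the 11 genes (x axis) that passed the threshold at 5 mg/kg against vehicle, for vehicle, 1 mg/kg and 5 mg/kg; the dotted line is the floor. The 1 mg/kg mean lies between the other means for 10 genes, and for Slc25a24 both doses sit together below vehicle.

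Among the BET proteins and the P-TEFb machinery, 14 of 20 tested genes were higher at 5 mg/kg and 6 lower, with a median log2 difference of 0.19 against -0.02 for all tested genes, and none passed the adjusted threshold. The median was 0.11 without 1 mg/kg replicate 2. Without adjustment, 5 members had p under 0.05, all of them higher. Of all 12499 tested genes, 5966 were higher and 6533 lower at 5 mg/kg. At an unadjusted p under 0.05, 5.26% were higher and 2.63% lower. These values are the background for the member counts of every list below. Hexim1 read 6.68, 8.10, 7.34, 8.05 and 7.71 at 1 mg/kg and 7.95, 9.25, 8.74, 8.32 and 8.11 at 5 mg/kg. The doses overlapped, and vehicle at 7.30 to 7.90 lay within the range of 1 mg/kg. The difference was 0.90 ± 0.29 (95% interval 0.28 to 1.52; 1.87-fold; adjusted p = 0.491 in limma), and 0.61 without the 2 dimmest arrays. A dimmer probe set of Hexim1, above the floor on 9 of 15 arrays, differed by 1.34 ± 0.29. From vehicle, the brighter probe set differed by -0.11 at 1 mg/kg and by 0.79 at 5 mg/kg.

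Brd2 read 7.69, 7.82, 7.35, 7.97 and 7.07 at 1 mg/kg and 7.94, 8.52, 8.24, 8.55 and 7.94 at 5 mg/kg. The ranges overlapped by a small margin. Vehicle had the lowest mean, at 6.48 to 7.36, and overlapped the 1 mg/kg mice at 7.35 and 7.07. The difference was 0.66 ± 0.23 (adjusted p = 0.519 in limma) on this probe set and 0.15 ± 0.35 on the other. Brd3 differed by -0.19 ± 0.36, with other probe sets at 0.81 and 0.13. Aff1, a scaffold of the super elongation complex, was higher by 1.24 ± 0.34 with 3 of 5 arrays at the floor at 1 mg/kg, and by 0.59 with a floor of 32. Of the P-TEFb subunits, Ccnt2 was higher by 0.65 ± 0.22, with its other probe sets at 0.37 and -0.21, and Cdk9, named after its value was seen, by 0.70 ± 0.27.

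Of 4 genes known as markers from this study, 2 were higher at 5 mg/kg and 2 lower, and as they may have been chosen on these samples they are not independent evidence. Serpini1, a neuronal serine protease inhibitor, was above the floor on 1 of 5 arrays at 1 mg/kg and on 4 of 5 at 5 mg/kg, at 4.97 to 5.45 in those 4, a difference of 0.83 ± 0.28. Its other tested probe set differed by 0.24 ± 0.23. Zcchc24 (-0.11 ± 0.28) and Zmynd8 (-0.16 ± 0.21) had intervals that span 0, and both changed sign without scaling. For Zcchc24 the 95% interval was -0.70 to 0.49 and for Zmynd8 -0.61 to 0.30.

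Of the genes reported to respond to BET inhibitors elsewhere, 6 of 15 were higher and 9 lower, with a median of -0.17. This list is not split by the direction reported, so its median does not show whether the reported response was followed. It shares Hexim1 and Serpini1 with the study markers above. All 6 of the higher members and 2 of the 9 lower ones had an unadjusted p under 0.05. These include Sertad1 and Ccr1, which passed against vehicle on the same 5 mg/kg arrays. Serpini1, also among them, was above the floor on 6 of 15 arrays, most of them at 5 mg/kg, and so entered the test through that group. The count is therefore not independent support. The median was -0.08 when either replicate 2 or replicate 5 of the 1 mg/kg group was left out. Txnip, an arrestin-like inhibitor of thioredoxin and of glucose uptake, read 7.92, 8.56, 8.23, 7.95 and 7.75 at 1 mg/kg and 8.82, 8.73, 9.10, 9.15 and 9.24 at 5 mg/kg. Its groups did not overlap, the difference was 0.93 ± 0.25 (adjusted p = 0.486 in limma), and a second probe set gave 1.41. Klf2 was higher by 0.71 ± 0.25. Myc was at the floor on 3 of 5 arrays at each dose and differed by -0.05 ± 0.36. Its difference from vehicle was -0.90 at 1 mg/kg and -0.94 at 5 mg/kg. The cytokine receptor gene Il7r differed by -0.17 ± 0.20 and Cd180, a Toll-like receptor homologue of B cells, by -0.20 ± 0.23. The 95% intervals were -0.81 to 0.72 for Myc, -0.60 to 0.26 for Il7r and -0.69 to 0.29 for Cd180.

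Histone genes were higher for 7 of 8 tested members, with a median of 0.60, and 4 had an unadjusted p under 0.05, all higher. These were H2ax, H2aw and the H2A.Z genes H2az2 (0.69 ± 0.25) and H2az1 (0.53 ± 0.23), which encode the variant found around active promoters. H2ax and H2aw passed against vehicle on these same 5 mg/kg arrays, so their part in the count is not separate support. H2az1 gave 0.51 on a second probe set, and H2az2 gave 0.08 on a second, dimmer one. H2az1 was at 7.68 to 8.50 at 1 mg/kg and at 8.0 to 8.94 at 5 mg/kg, so its groups overlapped. The median from vehicle was 0.34 at 1 mg/kg and 0.64 at 5 mg/kg. Of the 18 listed histone genes 9 matched a probe set, so the replication-dependent histone clusters are sparsely covered.

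B cell markers were higher at 5 mg/kg for 15 of 16 tested members, with a median of 0.64, and 8 had an unadjusted p under 0.05, all higher. Of all 12499 tested genes, 5966 were higher, and 5.26% were higher at an unadjusted p under 0.05. The mean over the list was 7.08, 7.35, 7.03, 6.82 and 6.00 on the log2 scale in the mice at 1 mg/kg and 7.35, 7.24, 7.63, 8.05 and 7.14 at 5 mg/kg. The doses overlapped, vehicle was at 6.74 to 7.87, and 1 mg/kg replicate 5 was the lowest of the 15 arrays. Without that array the median was 0.45. Spib, a transcription factor of B cells and plasmacytoid dendritic cells, read 7.31, 8.41, 7.94, 8.33 and 6.62 at 1 mg/kg and 8.78, 9.03, 9.50, 9.92 and 8.32 at 5 mg/kg, a difference of 1.39 ± 0.38 (adjusted p = 0.486 in limma).

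Ms4a1, which encodes CD20, differed by 1.17 ± 0.37 on its main probe set and by 1.17 ± 0.34 on the other. It read 8.55, 9.74, 9.29, 9.29 and 7.80 at 1 mg/kg and 9.91, 10.04, 10.30, 10.62 and 9.63 at 5 mg/kg. The difference was 0.88 without 1 mg/kg replicate 5. Cd79a, a signalling chain of the B cell receptor, differed by 1.11 ± 0.37, and by 0.75 without the same array. The adaptor gene Blnk differed by 0.66 ± 0.26. The median of the B cell list from vehicle was -0.31 at 1 mg/kg and 0.37 at 5 mg/kg.

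T cell markers were higher for 13 of 14 tested members, with a median of 0.40, or 0.29 without 1 mg/kg replicate 5. The T cell receptor chains Cd3g (0.91 ± 0.35), Cd3d (0.85 ± 0.35) and Cd3e (0.60 ± 0.22) and the adaptor Lat (0.74 ± 0.33) had an unadjusted p under 0.05. Cd3g read 8.22, 7.89, 7.21, 7.01 and 6.55 at 1 mg/kg and 7.54, 7.58, 8.69, 8.67 and 8.93 at 5 mg/kg, with wide overlap. Lat was 0.48 without 1 mg/kg replicate 5. NK cell markers had 9 of 11 members higher and a median of 0.14, which was -0.11 without 5 mg/kg replicate 5 and -0.06 with 18S as a covariate. Klrd1, the NK receptor chain CD94, differed by 0.66 ± 0.35, and by 0.38 without that 5 mg/kg array.

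All 19 tested ribosomal protein genes were higher at 5 mg/kg, with a median of 0.40, and 8 had an unadjusted p under 0.05. The list mean was 10.27, 10.47, 10.21, 10.20 and 10.04 at 1 mg/kg and 10.43, 10.46, 10.74, 10.71 and 10.95 at 5 mg/kg. The ranges touched at 1 mouse of the lower dose, and vehicle at 10.21 to 10.68 overlapped both. Rpl8 differed by 0.86 ± 0.30, Rpl22 by 0.72 ± 0.24 and Rps15 by 0.53 ± 0.19. Rps20 differed by 0.53 ± 0.19, with another probe set at -0.48. The median stayed positive under the other scalings, at 0.45 with the median ratio and 0.63 without scaling. The 18S signal averaged lower at 5 mg/kg, and with it as a covariate the median was 0.49. Ribosomal protein transcripts are abundant in lymphocytes, whose markers were also higher, and the part of that in these values was not tested.

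**Figure D4:**
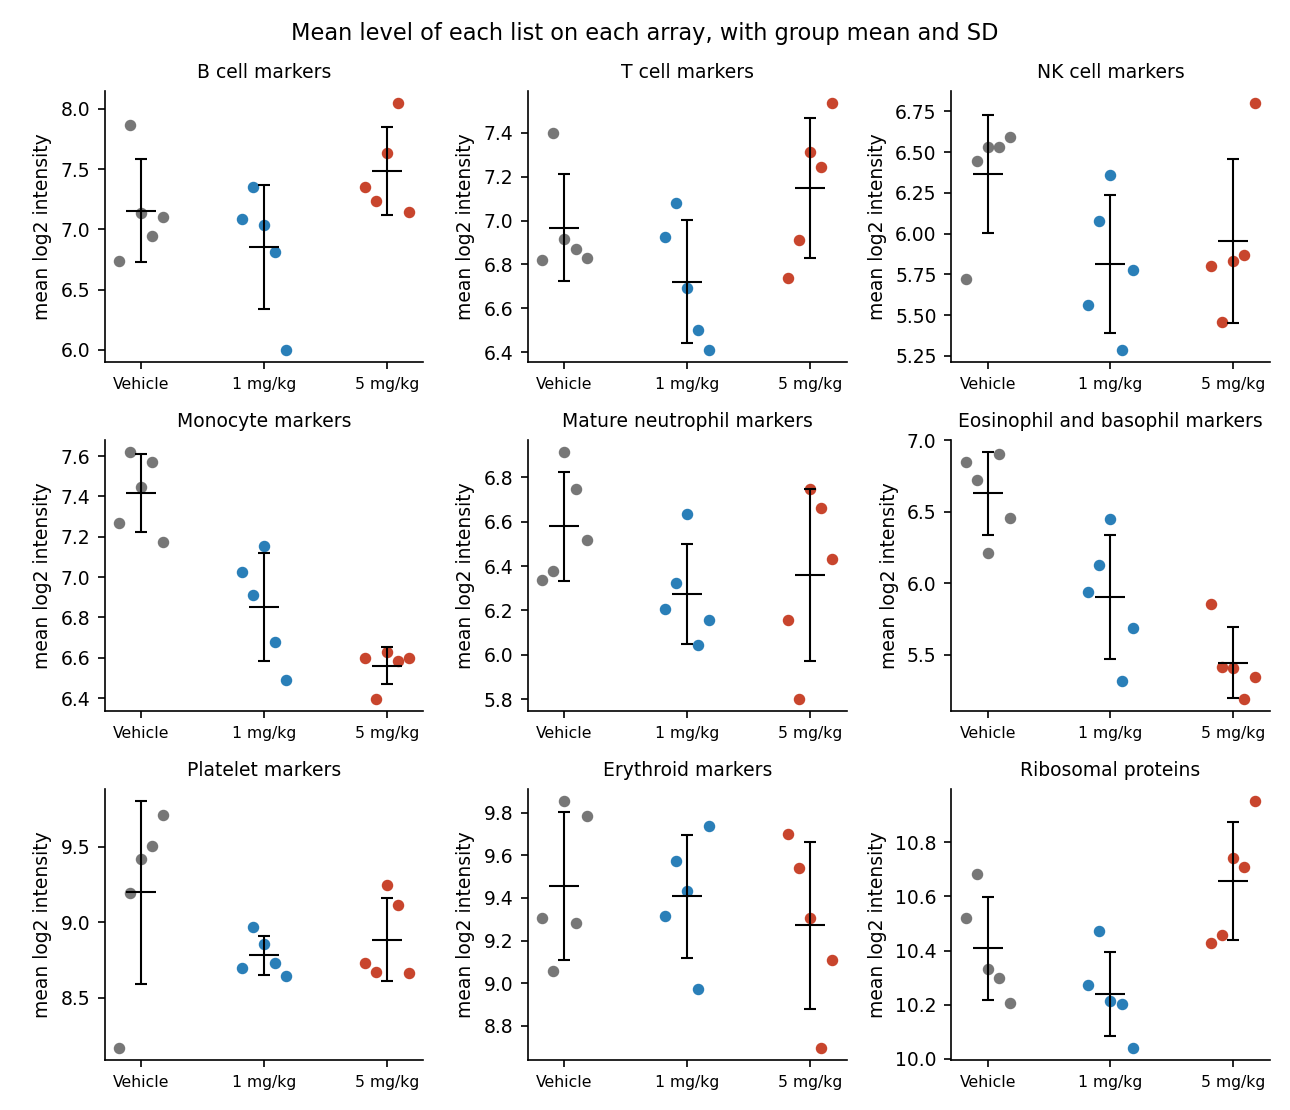
Mean log2 intensity (y axis) of 8 cell type marker lists and the ribosomal protein list on each array, by group (x axis); points are mice and black marks the group mean and SD (n = 5). B cell, T cell and ribosomal protein means sit higher at 5 mg/kg than at 1 mg/kg with overlapping mice, and the 5 mg/kg monocyte means sit together between 6.40 and 6.63.

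Monocyte markers were lower at 5 mg/kg for 16 of 21 tested members, with a median of -0.20, and 4 had an unadjusted p under 0.05, all lower. Mpeg1 and Clec4a3 are among these 4 and passed against vehicle on the same 5 mg/kg arrays, so their part in the count is not separate support. The list mean was 7.03, 6.91, 7.15, 6.68 and 6.49 at 1 mg/kg and 6.60, 6.40, 6.63, 6.58 and 6.60 at 5 mg/kg, against 7.17 to 7.62 with vehicle. The mice at 5 mg/kg lay within a narrow band, and 1 of the mice at 1 mg/kg lay inside it. The median was -0.08 without scaling, -0.09 when 5 mg/kg replicate 2 was left out and -0.10 when 1 mg/kg replicate 3 was. From vehicle the list's median was -0.58 at 1 mg/kg and -0.78 at 5 mg/kg.

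Besides Mpeg1 and Clec4a3, the members with the smallest p were Ccr2 and Csf1r. Ccr2, the receptor by which classical monocytes leave the bone marrow, read 6.66, 5.76, 6.71, 5.25 and 6.28 at 1 mg/kg and 5.65, 4.41, 4.90, 5.02 and 5.85 at 5 mg/kg. The groups overlapped, and the difference was -0.96 ± 0.37 (adjusted p = 0.542 in limma), with -1.03 and -0.14 on the other probe sets. Csf1r, the receptor for the monocyte growth factor M-CSF, was lower by 0.91 (log2 -0.91 ± 0.40) on its brightest probe set, with the others at -0.32 and 0.13 and the mean of all its probe sets at -0.36.

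Mature neutrophil markers had 10 of 16 members higher with a median of 0.18, or 0.05 when 1 mg/kg replicate 5 was left out, and -0.01 both when 5 mg/kg replicate 3 was and with 18S as a covariate. Clec4e, a lectin receptor of neutrophils and macrophages, was lower by 0.58 (log2 -0.58 ± 0.23) with 3 of 5 arrays at the floor at 5 mg/kg, and by 0.06 (log2 -0.06) with a floor of 32. Immature neutrophil granule genes had a median of -0.04 over 7 members, which ran from -0.22 to 0.05 when each array was left out. Eosinophil and basophil markers, which include Ear3 of the genes that passed against vehicle, were lower for 4 of 5. Their median was -0.37, which was -0.19 without scaling and -0.55 without 1 mg/kg replicate 4. Among them Alox15, a lipoxygenase of eosinophils, read 7.01, 5.84, 7.60, 5.90 and 6.12 at 1 mg/kg and 7.47, 4.60, 4.91, 4.00 and 4.13 at 5 mg/kg. A single mouse at the higher dose was as high as the lower dose, and the difference was -1.47 ± 0.72.

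Dendritic cell markers were lower for 7 of 12 members, with a median of -0.05, which ran from -0.16 without 1 mg/kg replicate 1 to 0.12 without 1 mg/kg replicate 3. The MHC class II genes on that list, which present antigen in B cells as well, did not share a direction. H2-Ab1 was higher by 1.61 ± 0.75, with 1 mg/kg replicate 5 at the floor and the other 4 at 8.26 to 9.46, and by 0.65 without that array. Its other probe sets gave 0.75 and 0.81. H2-Aa was higher by 1.19 ± 0.47, and by 0.72 without that array. H2-Eb1, named after its value was seen, was lower by 0.59 (log2 -0.59 ± 0.63), with arrays from 6.52 to 9.38 at 5 mg/kg and 6.84 to 9.0 at 1 mg/kg. Platelet markers had 11 of 14 members higher with a median of 0.14, and erythroid markers 5 of 13 with a median of -0.13. Without 5 mg/kg replicate 4 these medians were 0.03 and -0.05, and the platelet median was -0.09 with 18S as a covariate and 0.37 without scaling. The anion exchanger gene Slc4a1 of red cells differed by -0.53 ± 0.35, with 3 arrays at 5 mg/kg at 10.15 to 10.54 and the other 2 at 11.50 and 11.88.

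Of 13 tested chemokine receptor genes 6 were higher at 5 mg/kg and 7 lower, with a median of -0.10 that was 0.06 without scaling. When each array was left out its lowest value was -0.17, in the absence of 5 mg/kg replicate 3, and its highest 0.11, in that of 5 mg/kg replicate 4. The lymphocyte homing receptors Ccr7 (1.01 ± 0.34) and Cxcr5 (0.80 ± 0.27) and the widely expressed Cxcr4 (0.77 ± 0.26) were higher, while Ccr1 and Ccr2 of myeloid cells were lower. Ccr7 read 7.86, 7.86, 7.21, 6.74 and 6.19 at 1 mg/kg and 7.41, 7.76, 8.57, 8.64 and 8.51 at 5 mg/kg. The upper 3 mice at 5 mg/kg lay above all at 1 mg/kg, and the other 2 lay among them. The directions of these receptors between the doses were those of the B cell, T cell and monocyte marker lists given above. Ccr2 is itself on the monocyte list, and Ccr1 is among the genes that passed against vehicle at 5 mg/kg. The part of cell composition in these receptors was not tested.

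Immediate-early genes had 13 of 20 members higher and a median of 0.47, with 4 at an unadjusted p under 0.05: Ier5 (0.86 ± 0.24), Dusp1 (0.73 ± 0.31), Klf2 and Klf6 (0.67 ± 0.25). Ier5 lay at 6.74 to 7.31 at 1 mg/kg and 7.29 to 8.42 at 5 mg/kg, and its other probe sets gave 0.34 and -0.28. The list median was 0.31 without 1 mg/kg replicate 1 and 0.31 without the 2 dimmest arrays. Glucocorticoid-induced genes, which share Dusp1, had a median of 0.30 over 13 members, 7 of them higher. That median was 0.06 without 1 mg/kg replicate 1, 0.11 to 0.14 without 1 mg/kg replicate 3, 1 mg/kg replicate 5 or 5 mg/kg replicate 3, and 0.01 without the 2 dimmest arrays. Tsc22d3, a glucocorticoid-induced leucine zipper gene, read 8.07 to 8.85 at 1 mg/kg and 8.91 to 9.48 at 5 mg/kg, a difference of 0.50 ± 0.22 without overlap, with other probe sets at 0.64, -0.01 and -0.24.

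Survival and stress genes were mixed. Among p53 targets 7 of 13 were higher with a median of 0.20, including Trp53inp1 (0.80 ± 0.23) and Sesn1 (0.73 ± 0.23), whose groups did not overlap, while Sesn2 was lower by 0.66 (log2 -0.66 ± 0.31). The list median was 0.08 without 1 mg/kg replicate 5, 0.36 without 5 mg/kg replicate 2 and -0.04 without the 2 dimmest arrays. Sesn1 was higher on all 4 of its probe sets, at 0.56 to 1.12, while the other probe set of Trp53inp1, also above the floor on all 15 arrays, differed by -0.00025 ± 0.19. In the BCL2 family and survival list 10 of 18 were higher with a median of 0.10, which ran from -0.06 without 5 mg/kg replicate 5 to 0.22 without 5 mg/kg replicate 2. Mcl1, which holds back mitochondrial apoptosis, was at 8.70 to 9.44 at 1 mg/kg and 9.43 to 9.88 at 5 mg/kg, a difference of 0.54 ± 0.18 with 0.50 to 0.66 on its other probe sets. Birc3, an inhibitor of apoptosis induced by NF-kB, differed by 1.06 ± 0.44 and by -0.11 on a dim probe set, and by 0.67 without the 2 dimmest arrays. Bcl2l11, the pro-apoptotic gene of Bim, differed by 0.41 ± 0.18, and its other probe sets, all above the floor on 15 arrays, gave 0.38, 1.21 and -0.13.

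In the inflammatory cytokine and NF-kB list 9 of 22 were higher, with a median of -0.05. The median was -0.22 without 1 mg/kg replicate 4, -0.21 without 1 mg/kg replicate 3 or 5 mg/kg replicate 5, -0.20 with 18S as a covariate and 0.05 without scaling. Its inhibitor genes differed in sign, Nfkbia at 0.69 ± 0.25 and Nfkbib at -0.72 ± 0.33, the latter with a second, dimmer probe set at 0.35. Nfkbib was -0.40 without 5 mg/kg replicate 3 and -0.29 without the 2 dimmest arrays. Other probe sets of Nfkbia ran from -0.05 on a dim one to 0.74. Interferon-stimulated genes had 9 of 21 higher and a median of -0.13, which was -0.01 without 1 mg/kg replicate 4 and -0.04 when 5 mg/kg replicate 4 was left out instead. Cmpk2 (0.87 ± 0.34) and Irf9 (0.62 ± 0.26) were the members with an unadjusted p under 0.05, and a dimmer probe set of Cmpk2 gave -0.61. The MYC and ribosome biogenesis list had 12 of 22 higher with a median of 0.08 (-0.01 without 1 mg/kg replicate 5), including the nucleolar genes Npm1 (0.59 ± 0.24) and Ncl (0.51 ± 0.23), while Dkc1, the pseudouridine synthase dyskerin, differed by -0.43 ± 0.19.

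The remaining lists lay near the median of all genes. Their medians were 0.04 for 23 cell cycle genes, 0.11 for 20 proteasome genes, -0.01 for 17 heat shock and chaperone genes, -0.02 for 10 circadian clock genes, -0.04 for 24 respiratory chain genes and -0.07 for 22 lysosome and autophagy genes. When each array was left out, the medians of these 6 lists ran between -0.19 and 0.22, and those of the cell cycle, chaperone, clock and respiratory chain lists took both signs. Single members stood out from these medians. Pcna, the sliding clamp of DNA replication, differed by 0.63 ± 0.20 without overlap of the doses. Psmb9, a subunit of the immunoproteasome, read 6.40, 7.04, 5.43, 6.21 and 5.02 at 1 mg/kg and 6.27, 6.97, 7.56, 7.46 and 8.05 at 5 mg/kg, a difference of 1.24 ± 0.41 with overlapping mice. Housekeeping genes were higher for 11 of 13 with a median of 0.18, which was 0.07 with median ratio scaling. Among them Polr2a, the large subunit of RNA polymerase II, differed by 0.92 ± 0.28 on its bright probe set and by -0.01 on one above the floor on 5 of 15 arrays.

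**Figure D5:**
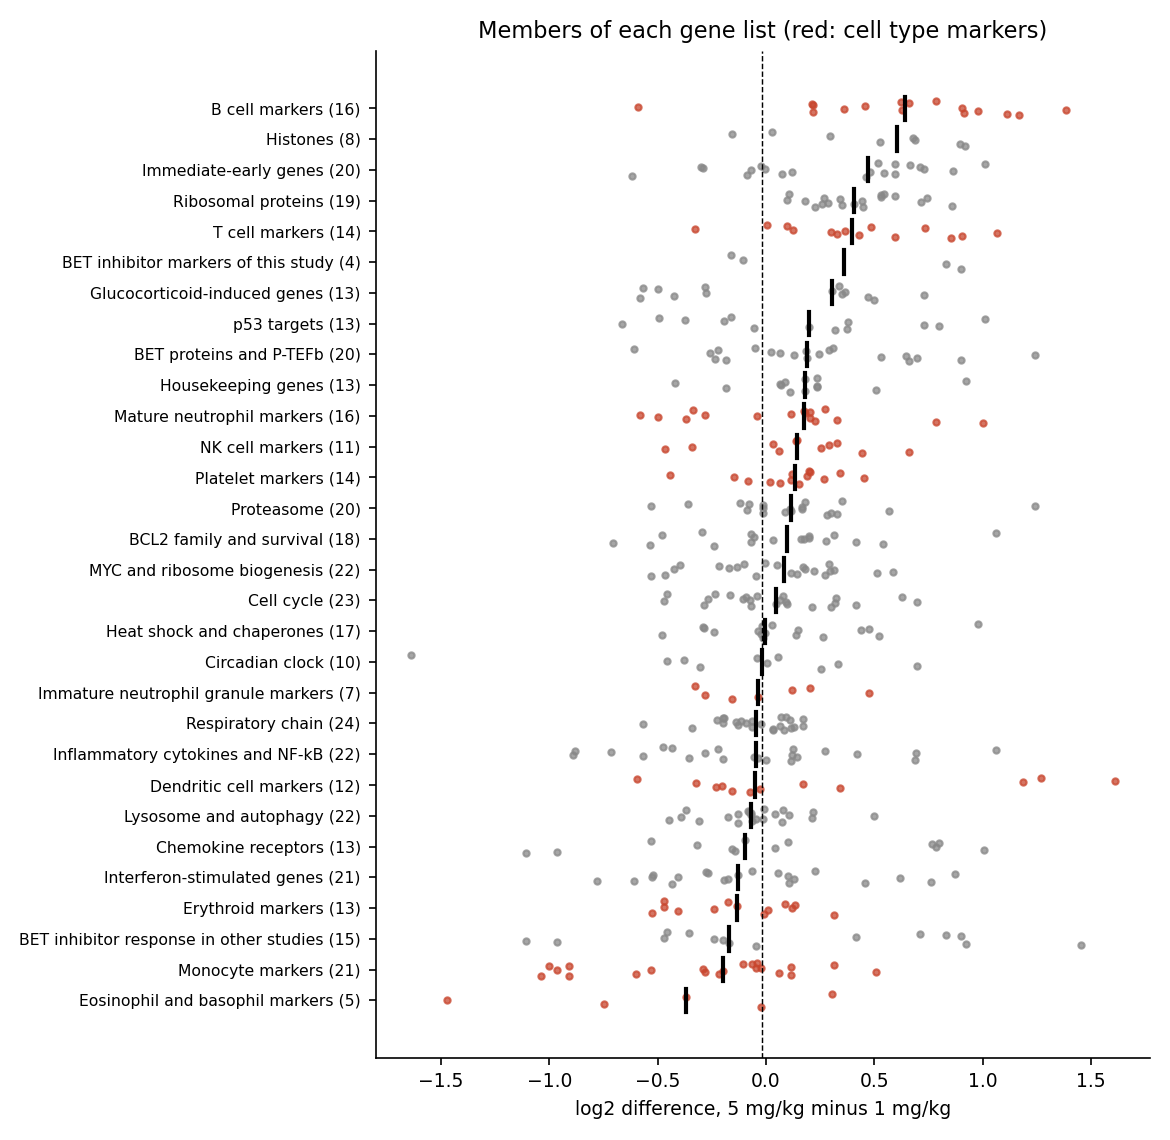
Log2 difference between doses (x axis, 5 mg/kg minus 1 mg/kg) of each tested member of 30 gene lists (y axis, with the number of tested members); points are genes, red for cell type markers and grey for pathways, black bars are list medians and the dashed line is the median of all tested genes, -0.02. B cell markers (0.64) and histones (0.60) have the highest medians. Eosinophil and basophil markers (-0.37, over only 5 tested members) have the lowest, and no member passed the adjusted threshold.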

How the data were processed

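The deposited table holds 1 value per probe set and array for 45101 probe sets, which are intensities on a linear scale, as read from the deposited values themselves. Qiazol and RNeasy gave the RNA, and 200 ng of it went into biotinylated cRNA by an Affymetrix 3' kit, per the labels' protocols. The software, summarisation and any scaling by the authors are not given in the sources used here, and the array medians showed no common scale. The replicates are separate mice per the series' design text.

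The 64 control probe sets were left out, the rest quantile-normalised over all 15 arrays, values under 16 set to 16 (log2 of 4, the floor, which held 52.7% of values) and log2 taken. The platform annotation, which can be old, gave 1 gene for 34945 probe sets, several for 932 and none for 9160, and 0 symbols changed through Entrez identifiers. Each of the 18193 genes kept its probe set of highest mean, and 12499 above the floor on at least 5 arrays were tested. Probe sets ending in _s_at or _x_at can match related transcripts. A log2 difference understates the change of a gene near the floor.

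The fit used lmFit and eBayes of limma 3.58.1 under R 4.3.3 (two-sided tests, no block, 15.9 degrees of freedom in all, 3.90 of them prior), checked on simulated data, with Benjamini-Hochberg adjustment over all tested genes and a threshold of 0.05. Array measures had exact permutation tests over 252 arrangements. List means had none, although a test of them had been planned. Lists are described by counts and medians.

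Named genes were the 12 higher and 12 lower with the smallest p among non-overlapping genes whose higher group averaged at least the median of all genes (log2 5.62) and which have a full symbol, the 11 genes that pass at 5 mg/kg against vehicle, Brd2, Brd3, Myc, Txnip, Hexim1, Il7r, Cd180, Ccr2, Zmynd8, Serpini1 and Zcchc24, and from each list at most 4 members, those of smallest p; a further gene of the rule is not reported here. The 20 pathway and 10 cell type lists held 568 genes, of which 496 matched and 434 were tested. Members and lists were chosen with earlier results of these data known. Promoters came from RefSeq's table for GRCm38.p6. Alternatives covered scaling, floor, filter, probe sets, arrays fitted, trend and robust options, array weights, replicate block, 18S as a covariate, and each array left out. Replicate numbers did not pair the mice.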

Additional observations from a re-analysis of the deposited data

Results flagged for a closer look

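In 28 of 405 groups of 5 arrays examined (3 groups for each named gene, list mean and measure of array quality), the highest or lowest array stood apart from the other 4 by Dixon's criterion at the 95% level. Chance flags about 1 in 20 groups. Of the 28, 5 came from 1 mg/kg replicate 5 and 5 from vehicle replicate 2.

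At 1 mg/kg, replicate 5 was lowest for the MHC class II genes H2-Aa (7.16 on the log2 scale, the other 4 at 9.36 to 9.62) and H2-Ab1 (4, the floor, against 8.26 to 9.46), and for Rps20 (11.06), Pcna (8.06) and Tsc22d3 (8.07). These genes, together with the B cell list, were all higher at 5 mg/kg with that array included. Replicate 1 was highest for Wdr53 (7.26), replicate 2 for Npc2 (9.39) and Cry1 (4.09), replicate 3 for Serpini1 (4.64) and replicate 4 for Zbtb11 (4.28), the latter 3 with the other 4 mice at the floor.

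At 5 mg/kg, replicate 1 was highest for Alox15 (7.47 against 4.00 to 4.91) and lowest for Lat (6.40) and Psors1c2 (5.94). Replicate 3 was lowest for Otud3 (5.88 against 7.02 to 7.25). Replicate 4 was lowest for Dmrt3 (4, the floor) and Zbtb11 (4.88). Replicate 5 was highest for Myc (4.80) and Clec4e (4.89). The monocyte list mean was lowest in replicate 2 (6.40 against 6.58 to 6.63).

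With vehicle, replicate 2 was highest for Ccr7 (8.44), Rps20 (11.93), Cd3g (7.84), Serpini1 (5.05) and the T cell list mean (7.40), and replicate 5 was lowest for H2az1 (7.79). Replicate 1 was lowest for Gp6 (5.68) and the NK cell list mean (5.72) and highest for the respiratory chain list mean (8.38). The vehicle arrays enter the comparison of the doses through the normalisation, the filter on dim genes, the choice of probe set and the estimate of spread.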

How the results depend on the processing

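Over 31 alternatives, 92 of the 99 named genes kept their sign in every one. Many of them were named for a small p or for separated groups in this same contrast, and the alternatives reuse the same arrays. A kept sign therefore follows in part from the choice of genes and is not separate support. The count past the adjusted threshold was 0 in all but 3 alternatives and 1 in those: with a floor of 8 (Cenpv, lower, at the floor on all vehicle and 5 mg/kg arrays), and, in the range of 0 to 1 when each array was left out, without vehicle replicate 3 (Zbtb11, adjusted p = 0.0478 in limma) and without 5 mg/kg replicate 4 (Tiprl). The unadjusted count of 987 was 189 without scaling, where the median of all genes was 0.07, and 1693 with every probe set on its own, and ran from 683 to 1367 when each array was left out. The unadjusted split of 658 higher and 329 lower was 521 and 378 with median ratio scaling and 384 and 311 without the 2 dimmest arrays. Non-overlapping genes, 145 in the main setting, numbered 5 without scaling, 252 with every probe set on its own, 331 without the 2 dimmest arrays (fewer arrays to separate), and 143 to 357 when each array was left out. Fewer dosed arrays separate fully more often by their number alone, so counts without dosed arrays cannot be set beside 145. With a replicate block the counts were 0 past the adjusted threshold and 933 unadjusted; same-numbered arrays of the doses correlated at -0.26, -0.03, -0.12, 0.29 and -0.04 in their deviations and 1 of 5 best with its own number, so the numbers do not pair the mice and the block changed no call.

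Without scaling, list medians were 0.31 for BET proteins and P-TEFb and 0.63 for ribosomal proteins, and the signs of Zcchc24 (0.0849), Zmynd8 (0.0349), Brd3 (0.0269), Il7r (0.0288) and Slc25a24 (-0.0820) turned. The study markers' median of 0.36 was -0.11 with a floor of 32 and also with genes above the floor on all 10 dosed arrays, where the circadian clock median was -0.38. Both rest on fewer genes. The p53 target median was -0.0382 without the 2 dimmest arrays. Averaging all probe sets of a gene gave 0.0844 for Mipep and 0.252 for Brd3, and with 18S as a covariate Myc was 0.0116. Slc25a24 was also -0.0293 with array weights and -0.110 without the 2 dimmest arrays. When each array was left out, Zcchc24 ran from -0.261 to 0.0454, Brd3 from -0.512 to 0.101, Slc25a24 from -0.078 to 0.164 and Myc from -0.201 to 0.0507. Where no construction is named, the cause was not tested. Most values lie at the floor, so dim genes are bounded by it, and the spread among 5 mice leaves most single-gene differences unresolved.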
